A study of Mus musculus with 12 samples.

Results

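A set of 1047 genes carried at least 1 N6-methyladenosine (m6A) peak in lipopolysaccharide-treated wild-type BV2 cells and none in lipopolysaccharide-treated Mettl3 knockout cells. They made up 7.83% of the 13370 genes with a wild-type (WT) peak, and their 1368 peaks were 3.74% of the 36611 WT peaks that the deposited list assigns to a gene. A gene was a member when its gene ID had a peak in the WT list and no peak at all in the knockout (KO) list. The KO list held 41153 peaks on 13031 genes, so it was not the shorter of the 2 lists by peaks. A total of 12323 genes had peaks in both lists, and 708 genes, 5.43% of those with a KO peak, were listed in the knockout alone.

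BV2 is an immortalised mouse microglial line, and lipopolysaccharide (LPS) is a bacterial cell-wall component that activates such cells. The labels describe 12 libraries of LPS-treated cells: 3 immunoprecipitated (IP) and 3 input libraries from WT cells, and 3 of each from cells with Mettl3 knocked out. Both genotypes thus share the line and the treatment, and no untreated cells were part of the comparison. The LPS dose and time, the way Mettl3 was disrupted and the number of knockout clones were not stated in the sources at hand, and the protocol text mentions neuroblastoma cells where the sample labels name BV2. Each deposited list gives 1 value per peak and genotype, so there was no spread between replicates to measure and no test of a genotype difference. The log2 of IP over input, called strength below, and the adjusted p of each peak are the authors' own. The genes were chosen by the presence of a peak in the WT list and its absence in the KO list, both measured in these samples, so the strength of their WT peaks is given as a description only. All intervals are 95% intervals that cover counting error alone.

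m6A is placed on nascent polyadenylated RNA by a nuclear complex in which METTL3 is the catalytic subunit and METTL14 its partner. The mark is found mostly in 3' untranslated regions (UTRs), around stop codons and in long internal exons, where YTH-domain proteins and other readers bind it and alter splicing, export, translation or decay. In microglia, as in other macrophage-like cells, LPS switches on short-lived transcripts for cytokines and transcription factors whose RNA level changes quickly. A peak list without the input values cannot separate less m6A per molecule from less RNA of that gene. Mettl3 itself was not a member: it had 3 WT and 6 KO peaks, with the strongest at chr14:52301301-52303977 under either genotype (log2 of 1.57 in WT and 2.07 in KO). These values do not measure the amount of Mettl3 RNA or protein and do not check the knockout.

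Among the members were 7 microRNA genes, short hairpin RNAs whose mature products repress target mRNAs through bases 2 to 8, the seed. METTL3 methylation of primary microRNA transcripts is known to mark them for processing, so the sequences identify which products come from these loci. The mature strand usually reported as the main product of each hairpin is shown 5′ to 3′ as listed by RefSeq for assembly GRCm38.p6, with the seed in capitals, in the order of peak strength.
mmu-miR-135a-5p: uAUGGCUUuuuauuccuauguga
mmu-miR-29c-3p: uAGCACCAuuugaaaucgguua
mmu-miR-215-5p: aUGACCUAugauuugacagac
mmu-miR-101a-3p: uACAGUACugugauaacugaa
mmu-miR-345-5p: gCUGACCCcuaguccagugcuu
mmu-miR-155-5p: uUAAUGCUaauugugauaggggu
mmu-miR-200c-3p: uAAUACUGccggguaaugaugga
Counting both arms, the 7 hairpins gave 14 mature sequences with 14 different seeds, so the loci did not belong to 1 seed family. The letters GGAC, the core of the m6A consensus, occurred on the RNA strand of 0 of these 7 hairpins and in 246 of the 1005 mouse hairpins of the table (24.5%). This says only that these letters are not within the hairpins themselves, which are far shorter than most of the peaks.

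The WT peaks overlapped all 7 hairpins, some only in part. They held 11 of 83 hairpin bases at Mir101a, 34 of 88 at Mir29c, 44 of 96 at Mir345 and 60 of 112 at Mir215. The miR-101a-3p and miR-345-5p sequences shown lay outside the peaks. The peaks ranged in strength from a log2 of 0.53 to 3.81. Mir135a-1 had the strongest, at chr9:106153009-106157155 (log2 of 3.81, adjusted p = 1.38e-115), followed by Mir29c (2.24), Mir215 (1.89), Mir101a (1.36), Mir345 (1.11), Mir155 (0.91) and Mir200c (0.53). The loci were not all free of KO peaks, because the hairpin and the transcript around it carry different gene IDs. At the Mir135a-1 locus the KO list had a peak of log2 2.48 inside the same stretch, assigned to the noncoding gene D030055H07Rik. The Mir101a peak shared its end with a KO peak assigned to E130102H24Rik (log2 of 0.50), and the Mir345 peak overlapped a long KO peak assigned to Slc25a47 (0.66). Mir155, the microRNA best known for its induction by LPS in macrophages and microglia, had a WT peak of 100 bases at chr16:84714138-84714237, on the hairpin. The KO peak at that locus was assigned to the host transcript Mir155hg and lay downstream, at chr16:84714888-84714987, with a log2 of 0.55 and an adjusted p of 0.0291. At Mir135a-1, Mir101a and Mir345 too, the KO peak began downstream of the hairpin. Each microRNA gene ID spans only its hairpin, and members have no KO peak under that ID. The rule that chose the genes thus largely fixes this placement, which is no separate evidence of a positional difference. Of the 13 microRNA genes in the table with a WT peak, 6 also had a KO peak under their own ID, and 5 further microRNA genes had a KO peak only. Members were 7.83% of all genes with a WT peak and 27.9% of long noncoding RNA genes with one. On a wider list of microRNA and small RNA genes, 9 of 29 with a WT peak were members. In the other direction, 10 of 30 with a KO peak were knockout-only, against 5.43% of all genes with a KO peak.

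**Figure D1:**
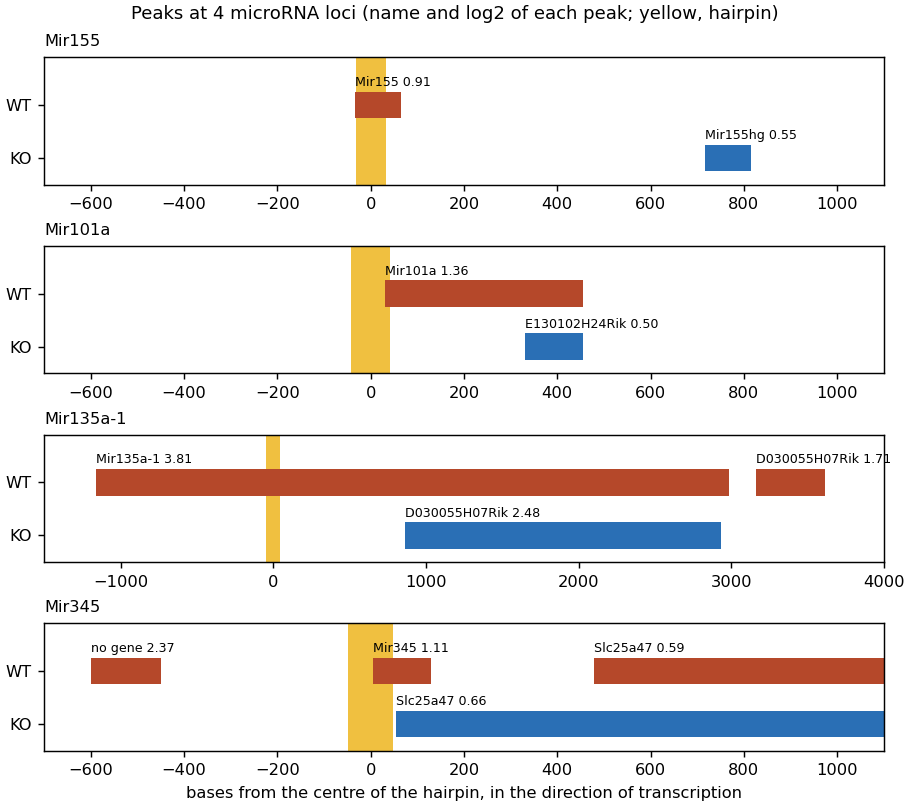
WT peaks (red) and KO peaks (blue) on the transcribed strand at 4 of the microRNA loci, drawn to scale by distance in bases from the centre of the hairpin (yellow) and labelled with the gene the list assigns and the log2 of IP over input. The WT peak of Mir155 lies on the hairpin and the KO peak of Mir155hg begins 716 bases downstream of its centre. At Mir101a, Mir135a-1 and Mir345 a KO peak under another gene name overlaps the WT peak but not the hairpin. Those KO peaks begin 331, 862.5 and 54.5 bases downstream of the hairpin centre. The rule that chose the genes largely fixes the absence of KO peaks on the hairpins.

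The 1368 member peaks had higher median strength, shorter spans and fewer neighbours per gene than the other WT peaks. Peaks of genes listed in the knockout alone differed from the other KO peaks in the same directions. For strength this did not hold there when only the strongest peak of each gene was counted. Their median log2 was 1.45 (interval 1.36 to 1.51), with quartiles of 0.91 and 2.34, against 0.82 (quartiles of 0.62 and 1.26) for the 35243 WT peaks of genes in both lists. The 874 peaks of genes listed in the knockout alone had a median of 0.85 (0.62 to 1.22), against 0.70 for the KO peaks of genes in both lists. Counted by peak, genes in 1 list only thus had the higher median on either side. By the strongest peak of each gene, the WT medians were 1.57 for members and 1.34 for genes in both lists. The KO medians had the reverse order, 0.91 for knockout-only genes and 1.08 for genes in both. Among genes with 1 peak the medians were 1.52 against 1.22 in WT and 0.90 against 1.09 in KO. Enrichment of at least 4-fold was listed for 439 member peaks (32.1%), 3864 other WT peaks (11.0%) and 78 knockout-only peaks (8.92%), with 3.82% for the KO peaks of genes in both lists. By gene, 387 of the 3738 genes with a 4-fold WT peak (10.4%) had no KO peak of any strength. A log2 of 4 or more was listed for 76 member peaks (5.56%) and for 172 other WT peaks (0.488%). Strength and adjusted p did not run together among these: the 76 member peaks had a median adjusted p of 8.38e-11 and the 172 others of 6.20e-76. Over all peaks, an adjusted p above 0.001 was listed for 30.9% of member peaks and 18.2% of the other WT peaks. The members include genes at the very edge of the list. Ptprn2 (log2 of 0.79, adjusted p = 0.0532), Gm13034 (0.82, 0.0525) and Gm50346 (0.60, 0.0522) had the largest adjusted p of their strongest peak. On the other side, Gm21811 (KO log2 of 0.59, adjusted p = 0.0521), Gm12256 (0.59, 0.0519) and Gm12166 (0.41, 0.0517) were kept out by a KO peak just as marginal, although their WT peaks stood at 2.49, 1.55 and 1.39.

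**Figure D2:**
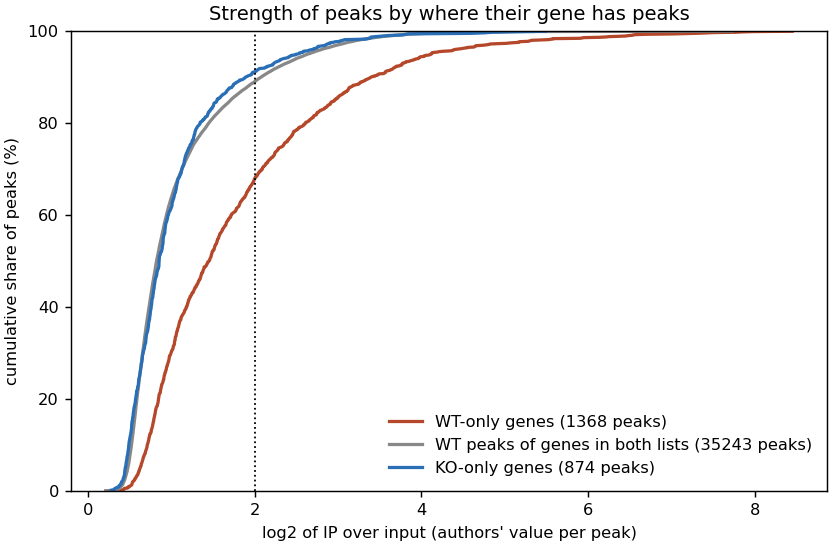
Cumulative share of peaks (%) against the authors' log2 of IP over input for WT peaks of WT-only genes (red), WT peaks of genes in both lists (grey) and KO peaks of KO-only genes (blue); the dotted line marks 4-fold. The red curve lies to the right of the others, with 32.1% of its peaks past 4-fold against 11.0% (grey) and 8.92% (blue).

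Most members rested on 1 peak. That was so for 825 of the 1047 genes (78.8%) and for 3484 of the 12323 genes in both lists (28.3%), and the mean number of peaks was 1.31 and 2.86. Knockout-only genes were alike in this, with 1 peak for 586 of 708 (82.8%) and a mean of 1.23. Another 149 members had 2 peaks and 73 had 3 or more. Notch1, a receptor of cell-to-cell signalling, had the most, with 7 peaks of log2 0.62 to 1.43 spread from its coding exons to its 3' UTR. Next came Gm12258 with 6, the adrenergic receptor gene Adra1a and Ccdc171 with 5 each, and Slamf7, a surface receptor of immune cells, with 4 (strongest log2 of 3.68). Members were also counted by strength and peak number. Among all genes with a WT peak, members were 6.94% of those whose strongest peak had a log2 below 0.75, 8.07% between 2 and 3, 11.7% between 3 and 4 and 30.2% (71 of 235) from 4 upwards. Among genes with 1 WT peak the share went from 12.2% below 0.75 to 49.2% (58 of 118) from 4 upwards. The share thus rose at the strongest peaks in both counts.

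The member peaks covered a median of 400 bases of genome, introns included (interquartile range 225 to 1306), against 575 (250 to 2925) for the other WT peaks. Peaks over 1000 bases made up 28.4% (389) of the first and 40.6% (14309) of the second. Knockout-only peaks were shorter still, with a median of 325 bases and 20.6% over 1000. The genes were shorter too, with a median span of 6763 bases against 20231 for genes in both lists and 4253.5 for knockout-only genes. Among the widest peaks were those of A530032D15Rik (119590 bases, log2 of 1.51) and of Lipc, which encodes hepatic lipase (111062 bases, 0.81). The narrowest spanned 100 bases, and the strongest of these were the weaker peak of Cyp2e1 (7.18), the weaker peak of the predicted gene Gm7292 (6.48) and the peak of Gm8818 (5.32).

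By the deposited annotation, exons of noncoding RNAs held the largest share of member peaks. They held 705 of the 1368 (51.5%, 48.9 to 54.2) on 591 genes, against 6.48% of the other WT peaks. This order depended on the threshold: with both lists limited to 4-fold peaks, noncoding exons held 18.3% and 3' UTRs 59.4%, and with peaks of at most 1000 bases 33.1% and 40.4%. The 3' UTR, the leading class elsewhere with 54.1% of the other WT peaks, held 388 (28.4%, 26.04 to 30.81). Coding exons held 177 (12.9%, 11.3 to 14.8), against 21.4%. The 5' UTR held 80 (5.85%, 4.72 to 7.22), against 12.1%, and introns 16 (1.17%), against 5.76%. The shares of knockout-only genes were near those of the members, with 49.5% in noncoding exons, 30.7% in 3' UTRs and 12.1% in coding exons. The large noncoding share was thus common to genes found in either list alone, whereas their median strength was not alike, at 1.45 in the WT and 0.85 in the KO direction. Strength differed little between the main classes of member peaks, with median log2 values of 1.50 in 3' UTRs, 1.48 in coding exons, 1.42 in noncoding exons and 1.21 in 5' UTRs. For the other WT peaks those medians were 0.86, 0.66, 1.20 and 0.95. Among 3' UTR peaks, 64 of 388 (16.5%) reached the annotated end of the gene, against 29.8% of the other WT peaks and 26.1% of the knockout-only peaks. The strongest in each class were Alb in the 3' UTR (8.45), Ttr in coding exons (7.99), Gm7292 in noncoding exons (7.84), Fam110c in the 5' UTR (5.93) and Iqank1 in introns (3.81).

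**Figure D3:**
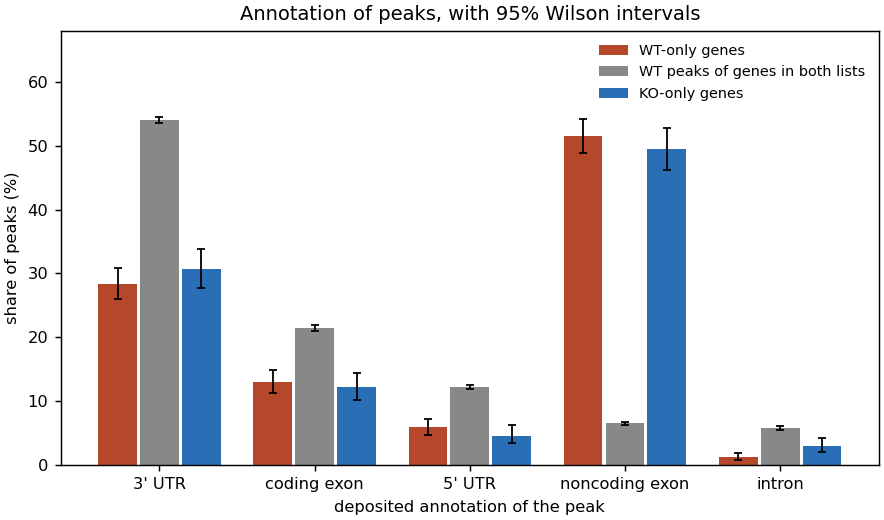
Share of peaks (%) in each deposited annotation class for WT-only genes (red, 1368 peaks), WT peaks of genes in both lists (grey, 35243) and KO-only genes (blue, 874), with 95% Wilson intervals as bars. Noncoding exons hold 51.5% and 49.5% of the peaks of genes in 1 list only and 6.48% of the WT peaks of genes in both, and 3' UTRs show the opposite order.

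The gene types behind these classes were read from RefSeq by symbol, which gave an entry for 797 of the 1047 members. Protein-coding genes were 429 of the members (41.0%) and were themselves mostly not members, at 3.88% of the 11046 with a WT peak. Long noncoding RNAs followed with 218 of 780 (27.9%) and pseudogenes with 136 of 635 (21.4%), and 250 of the 869 genes with no RefSeq symbol (28.8%) were members. By name, 450 members were predicted genes with a Gm number (29.2% of 1541) and 114 were RIKEN clone genes (19.0% of 600). Knockout-only genes with a Gm number came to 303. Many predicted genes and pseudogenes are near copies of other genes, and the sources at hand do not say how reads matching several copies were placed, so these peaks are uncertain. Antisense and opposite-strand genes gave 24 members of 115 (20.9%). Il1bos, which is transcribed opposite the interleukin gene Il1b, had peaks of log2 3.57 and 2.48 in WT only, while Il1b had peaks in both lists (0.90 in WT, 0.98 and 1.55 in KO). Others were Bach2os (3.48), Mipepos (3.25), Tmcc3os (2.85) and Mettl5os (2.10), opposite the gene of an rRNA m6A methyltransferase that itself had peaks in both lists. The small nuclear RNA Rn7sk, a brake on transcription elongation, had a weak peak (0.66). The host transcript Gas5 was a member by gene ID only: its WT peak (0.65) lay inside a KO peak of log2 1.38 assigned to Snord47, a small nucleolar RNA within Gas5.

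Whether KO peaks under other gene IDs lay at the members' positions was checked without gene names. Of the 1368 peaks, 37 (2.70%, 1.97 to 3.71), on 34 genes, shared a base with a KO peak on the same strand, and 264 (19.3%) had one within 10000 bases. The rule that chose the genes fixes most of this low share, so it is no separate evidence that they lack KO signal. On the opposite strand, which the rule did not use, the share was 9.43% (129 peaks, 92 of them in noncoding exons), near the 9.67% of the other WT peaks. The 37 overlapping peaks were long, with a median span of 2705 bases against 400 for the rest, and in them the 2 lists gave different gene IDs to the same stretch. An example was Igtp, an interferon-induced GTPase of intracellular pathogen defence. Its WT peak at chr11:58201669-58221257 (log2 of 1.87, adjusted p listed as 0) covered a stretch where the KO list had peaks of log2 1.17 and 1.49 assigned to the neighbouring family member Irgm2. The Ifi47 peak of log2 1.46 likewise overlapped a KO peak assigned to Olfr56 (1.10), and the Ifitm10 peak (0.97) 1 assigned to Ctsd (1.18). Igtp, Ifitm10 and Tsx (log2 of 3.36, overlapping a KO peak of Gm26992 at 2.38) were the 3 members whose adjusted p was listed as 0, and all of them shared their position with a KO peak. The Tsx peak spanned 61428 bases (chrX:103421988-103483415), most of them past the annotated gene end at 103424580. On the opposite strand it overlapped KO peaks of Xist with a log2 of up to 2.31. The protocadherin Pcdhga4, whose gene cluster shares exons, overlapped a KO peak of Pcdhgb1 (3.02). Aldoa, Gcat and Gm16701 were members under 1 gene ID while another ID of the same symbol had a KO peak.

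The strongest members were led by genes known for their high expression in liver, most of them for secreted proteins. Alb, which encodes serum albumin, had the strongest peak of all, at chr5:90462619-90476602 (log2 of 8.45, or 350-fold, adjusted p = 8.29e-24). Ttr (7.99), the thyroid hormone and retinol carrier, Cyp2e1 (7.51 and 7.18), a cytochrome P450, Gc (7.42), the vitamin D binding protein, Apoa1 (6.58), the main protein of high-density lipoprotein, and Hpx (6.46), which binds haem, were also among the 20 strongest. A list of 52 liver genes was drawn up after these values had been seen, and its counts are a description of that choice. Of the 52, 18 had a WT peak, 11 of them in WT only, 7 were in both lists, 1 (Ass1, log2 of 0.49) was in the KO list only and 33 had no peak. The other 5 members on the list were much weaker: Apoa2 (2.06), F9 (1.07), Serpinc1 (1.03), Lipc (0.81) and Lbp (0.75), whose product carries LPS to its receptor complex. Those in both lists included the acute-phase gene Hp (3.50 in WT and 2.16 in KO), Apoe (0.94 and 0.76) and Afp (0.77 and 1.05). The part played in the WT list by RNA of other cells or samples was not tested, since no level in any input library was analysed here.

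The rest of the 20 strongest members spanned a log2 of 5.58 to 7.84 and were 7 predicted genes, led by Gm7292 (7.84) and Gm47063 (7.77), and 7 named genes. Lrfn2 (7.32) encodes a synaptic adhesion protein, Zfp354c (6.54) a zinc-finger factor, Jsrp1 (6.53) a muscle junctional protein and St8sia1 (6.21) the ganglioside GD3 synthase; the others were Megf9 (6.14), Fam110c (5.93) and Plekha6 (5.90). Of the 20 genes, 15 had 1 peak and 15 had a strongest peak of at most 1000 bases, and their adjusted p ran from 8.29e-24 to 3.14e-07. A log2 of 6 or more was reached by 24 genes in the WT list, of which 16 were members, and by 6 genes in the KO list, of which 0 were knockout-only.

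**Figure D4:**
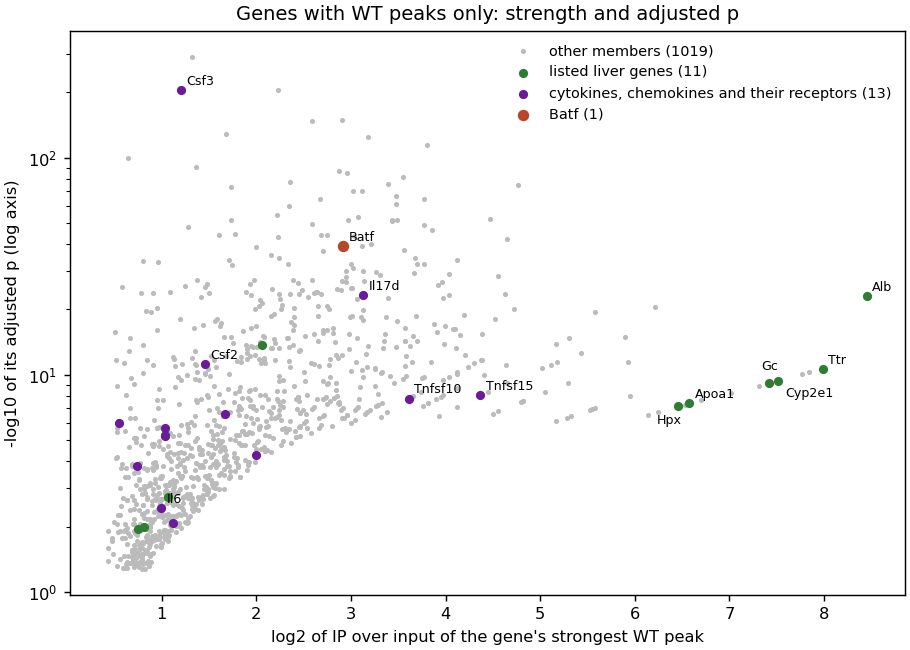
Strongest WT peak of each WT-only gene by its log2 of IP over input (x axis) and the −log10 of its adjusted p (y axis, log scale), with listed liver genes in green, cytokine and chemokine genes and their receptors in purple and Batf in red; the 3 genes with an adjusted p listed as 0 are not drawn. Alb, Ttr, Cyp2e1, Gc, Apoa1 and Hpx lie at the far right with a log2 above 6, and Csf3 at the top with a log2 of 1.20.

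Among genes of the inflammatory response, the members were scattered single genes from several families. The counts below stand beside 7.83% of all genes with a WT peak and 3.88% of the protein-coding ones. Batf, a transcription factor of the AP-1 group that pairs with IRF proteins, had peaks of log2 1.88 (chr12:85686694-85689537) and 2.92 (chr12:85689763-85709081), which between them covered nearly all of the gene. Both span more than 1000 bases (2844 and 19319), so Batf drops out when peaks are limited to 1000 bases. It was the only member of 19 genes with a WT peak on the list of AP-1, BATF and IRF partner genes, and the other 18 had KO peaks too. With both lists at 4-fold the list held 8 members. Under that limit 2476 of all 3738 genes with a 4-fold WT peak were members, so a count under it does not single out a list. Of 10 genes named Il and a number with a WT peak, 3 were members: Il17d (3.13), Il6 (0.61 and 0.99), the cytokine most used as a readout of LPS activation, and Il1a (0.55, 0.49 and 0.53). Il1f9 (0.53, adjusted p = 0.0485), an interleukin of the IL-1 family whose name falls outside that pattern, was a member too. The list of colony-stimulating factors, which act on myeloid cells, and their receptors gave 2 of 8 (25%, 7.15 to 59.1), the factors Csf2 (1.46) and Csf3 (1.20). Both peaks were annotated 3' UTR. The Csf2 peak spanned 2222 bases (chr11:54247271-54249492) and covered nearly all of the gene, while that of Csf3 spanned 213 bases at the 3' end of its gene. The Csf3 peak had the far smaller adjusted p (6.14e-205, against 6.22e-12). The 4 chemokine-system members of 20 were the receptors Ccr4 (1.15 and 1.99), Cxcr5 (1.57 and 1.67) and Ccr10 (1.12) and the ligand Ccl12 (0.73), which recruits monocytes. In the TNF superfamily 4 of 30 were members: the ligands Tnfsf15 (4.37) and Tnfsf10 (3.61), which induces apoptosis, each with 1 peak of 150 bases in the 3' UTR, and Cd27 and Tnfrsf18 (1.04 each). With WT peaks held to 4-fold and any KO peak counted, these lists held 1 interleukin, 0 colony-stimulating factors or their receptors, 0 chemokine-system genes and 2 TNF superfamily genes. In that count 387 of all 3738 genes with a 4-fold WT peak (10.4%) were members.

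Feedback, GTPase and interferon genes added a few more members. Socs1, which blocks cytokine receptor signalling, was the only member of 8 SOCS genes, with a peak of log2 0.91. That list held 0 members with an adjusted p limit of 0.001 in both lists, and 5 with both at 4-fold. At this last limit 2476 of all 3738 genes with a 4-fold WT peak were members. Of 10 guanylate-binding proteins and immunity-related GTPases with a WT peak, 3 were members, Igtp and Ifi47 with the overlaps given above and Gbp3 with 3 weak peaks (0.60, 0.72 and 0.85). Interferon-stimulated genes gave 5 of 54 (9.26%), beside 7.83% of all genes and 3.88% of protein-coding genes, and Ifit3b (2.40) was the strongest of them. The 5 include the antisense RNA Slfn5os (1.97), and 2 were left when peaks sharing a base with a KO peak on either strand were removed. Interleukin receptors gave 0 of 20, and toll-like and C-type lectin receptors 1 of 20, Clec4n (0.77). The interleukin receptor count was 5 with both lists at 4-fold, again beside 2476 of 3738 for all genes. The counts in these lists are small, and the interval for the interleukins, for example, ran from 10.8 to 60.3%.

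Across gene lists with at least 8 genes with a WT peak, the member share ranged from 0 to 36.4% and was highest for histones. The share was 7.83% for all genes with a WT peak and 3.88% for the protein-coding ones. Of 33 histone genes with a WT peak, 12 were members (36.4%, 22.2 to 53.4), counting the antisense gene H3f3aos. With both lists at 4-fold there were 8, and with 4-fold WT peaks and any KO peak 2. For all 3738 genes with a 4-fold WT peak those counts were 2476 and 387. They covered the linker histone H1f5 (1.55), H2A and H2B genes such as H2ac19 (1.61), H2bc7 (2.27) and H2bc15 (1.82), H3c4 (0.69) and the H4 genes H4c14 (1.45) and Hist1h4m (1.20). Their median strength, 1.44, was near that of histone genes in both lists, 1.33. Most replication-dependent histone mRNAs have no poly(A) tail and near-identical coding sequences, and the protocol selected polyadenylated RNA, so these peaks and their assignment to 1 gene are uncertain. Cadherins and protocadherins gave 5 of 16 (31.2%), with Pcdhga4 (4.19), Pcdhgc5 (2.87) and Cdh11 (1.59) the strongest. G protein-coupled receptors gave 13 of 74 (17.6%, 10.6 to 27.8). Examples were the pheromone receptor gene Vmn2r1 (4.82), the sphingosine-phosphate receptor gene S1pr4 (3.68) and the proton-sensing receptor gene Gpr4 (3.56). Ion channels gave 7 of 48, led by Cacnb1 (4.10) and Kcnk4 (3.77), and homeobox genes 5 of 33, including Dlx1 (2.78) and its antisense partner Dlx1as (3.93). In the other direction, 5.43% of all genes with a KO peak were knockout-only. Such genes were 6 of 47 ion channels, 2 of 13 cadherins and protocadherins and 2 of 23 histone genes. They were 5 of 66 G protein-coupled receptors and 1 of 29 homeobox genes.

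The larger families named next lay under the 7.83% of all genes, and all but the ubiquitin ligases lay above the 3.88% of protein-coding genes. Zinc-finger genes gave 20 of 372 (5.38%), led by Zfp354c, Zfp663 (3.99) and Zfp937 (3.75). Solute carriers gave 14 of 204 (6.86%), among them the fructose transporter gene Slc2a5 (3.98). The list of kinesin, dynein, axoneme and coiled-coil (Ccdc) genes gave 13 of 168 (7.74%), of which 8 were Ccdc genes and 1 the antisense RNA Kif16bos, and TRIM and RNF ubiquitin ligases 2 of 101, Trim67 (3.88) and Rnf180 (2.84). Several families of broadly expressed genes had no member in the lists as deposited. These were the cytosolic ribosomal proteins (0 of 81), cyclins and their kinases and inhibitors (0 of 58), m6A writers and cofactors (0 of 13) and m6A erasers and readers (0 of 16). Such families are almost wholly protein coding, and protein-coding genes as a class stood at 3.88%. The zeros did not hold under every threshold. With both lists at 4-fold there were 3 ribosomal protein, 5 cyclin-list, 3 writer and 2 eraser or reader genes. At that limit 2476 of all 3738 genes with a 4-fold WT peak were members. With short peaks there were 5 ribosomal protein and 3 cyclin-list genes.

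**Figure D5:**
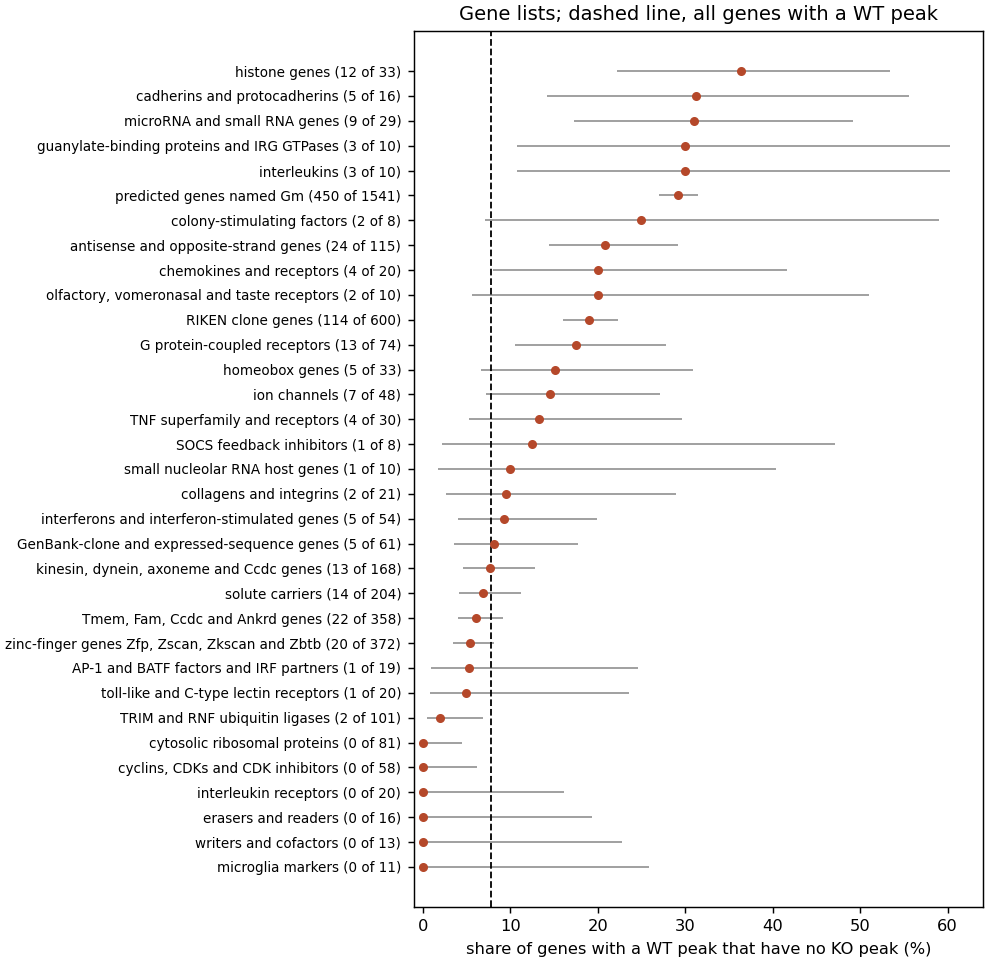
Share (%) of genes with a WT peak that have no KO peak, for each gene list with at least 8 such genes, with the 95% Wilson interval as a line and the number of WT-only genes of all with a WT peak in brackets; the dashed line marks the 7.83% of all genes. Of the lists drawn, histones lie highest at 36.4%, and ribosomal proteins, cyclins, interleukin receptors, the m6A machinery and microglial markers lie at 0.

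The KEGG column of the deposited list gave a pathway for 158 members (15.1%) and for 35.9% of the genes in both lists, so it describes a minority of the set. Among all 4581 annotated genes with a WT peak, members were 3.45%, and of the 211 pathways with at least 30 such genes, 76 lay above that share and 44 held no member. The highest share was in systemic lupus erythematosus, with 10 of 50 (20%, 11.2 to 33.0), and all 10 were histone genes; the same 10 made up alcoholism (10 of 89). Neuroactive ligand-receptor interaction had 11 of 56 (19.6%), including Mc1r, S1pr4, Kiss1r and Npy4r. Complement and coagulation cascades had 6 of 31 (19.4%), with the clotting initiator F3 (1.73), F9 (1.07), the thrombin inhibitor Serpinc1 (1.03) and Cd46. Cytokine-cytokine receptor interaction had 14 of 106 (13.2%, 8.03 to 21.0), the genes described above plus Il1f9 (0.53). The IL-17 pathway had 6 of 61 (9.84%): Il17d, Csf2, Csf3, Mmp13, Il6 and Ccl12. Hypertrophic (5 of 41) and arrhythmogenic right ventricular cardiomyopathy (3 of 30), hematopoietic cell lineage (5 of 42) and ECM-receptor interaction (3 of 31) completed the 10 highest, with members such as Itga2b, Cacnb1 and Col4a2. Beside the 3.45% of all annotated genes, Toll-like receptor signalling, which senses LPS, had 2 of 74 (2.70%, Il6 and Lbp), NF-kappa B signalling 2 of 78 (2.56%, Lbp and Bcl2a1a) and TNF signalling 5 of 92 (5.43%). Ribosome (0 of 125), spliceosome (0 of 125), cell cycle (0 of 117) and oxidative phosphorylation (0 of 104) held none. These shares were not tested.

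By the GO terms of the list, picked after the values were seen, members were 4.02% of the 11150 annotated genes with a WT peak. They were 25.6% of nucleosome genes (11 of 43), 21.8% of genes with G protein-coupled receptor activity (22 of 101), 17.2% of cytokines (11 of 64) and 13.0% of genes of the extracellular space (58 of 446). They were 2.28% of nuclear (99 of 4348) and 2.84% of cytoplasmic genes (128 of 4507), and 0 of 128 for mRNA splicing.

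Marker genes of cell types were counted by their peaks, although a peak shows that RNA of a gene was recovered and not how much. A missing peak does not show that the RNA was absent, so these counts do not establish the identity of the cells. Of 20 microglial markers, 11 had a WT peak, all 11 also had a KO peak and 0 were members. Of the markers of other cells, 1 of 10 for astrocytes, 2 of 15 for neurons and 2 of 10 for oligodendrocyte-lineage cells had a WT peak. The counts were 3 of 8 for endothelium and 0 of 10 for T and B lymphocytes. Cspg4 (2.35), a proteoglycan of oligodendrocyte precursors and pericytes, and Pecam1 (0.97), an endothelial and myeloid adhesion protein, were the members on these lists.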

How the data were processed

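m6A immunoprecipitation sequencing was done on polyadenylated RNA with strand-marked libraries, per the labels' protocols. Tools named without version or role in the submitters' processing notes are edgeR, HOMER, StringTie, HISAT2, FastQC and fastp. The genome build, the peak caller's settings and any pooling of libraries were not stated there or in the labels. Per the file headers, the authors deposited for each peak its position, gene and annotation class, a log2 value (IP over input) and a p-value with its adjusted form. Depth per library is unknown. Starts were counted from 0, and 1 was added. Of 12501 WT genes with a symbol in RefSeq's GRCm38.p6 table, 12500 overlapped their position there, among them 796 of 797 members.

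Members were found by gene ID. Shares have Wilson intervals and medians order-statistic intervals. Overlap means at least 1 shared base. Lists and pathways were described by their share of members, without a test; pathways needed 30 genes. The members and lists were chosen with earlier results of these data known. Named genes are Batf, the 20 strongest members, the 5 with most peaks, the 3 widest and the 3 narrowest, the 3 on either side of the threshold, up to 6 of each gene list, 4 of each annotation class and up to 4 of each extreme pathway. Not every gene under this rule is reported here. Others were chosen after their values were seen, as were the liver list and the microRNA loci. Alternatives included tighter limits (4-fold, or adjusted p up to 0.001), peaks of at most 1000 bases, equal list sizes, and matching by symbol or position. Work was done in Python 3.11.15 with matplotlib 3.10.9, SciPy 1.17.1, numpy 2.4.6 and pandas 2.3.3, and the steps were tested on simulated data.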

Additional observations from a re-analysis of the deposited data

How the results depend on the processing

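The number of members stayed within 1.5 times of 1047 under matching by symbol (1044), removal of peaks sharing a base with a KO peak on the same strand (1013) or either strand (901), 50% reciprocal overlap (1040), an adjusted p of at most 0.001 (1227, of which 783 were among the 1047), peaks of at most 1000 bases (1456, of which 790) and equal numbers of peaks (1277). It was 2476 with both lists at 4-fold, 387 with WT peaks at 4-fold and any KO peak, and 456 without the genes that had a noncoding-exon WT peak, an alternative added after seeing the data. The noncoding-exon share, 51.5% as reported, was 44.8% at an adjusted p of at most 0.001, 18.3% with both lists at 4-fold, 33.1% with short peaks and 48.1% with equal numbers. The 3' UTR share, 28.4% as reported, was 35.3%, 59.4%, 40.4% and 30.8% under those settings in turn, and 31.7% with 4-fold WT peaks and any KO peak. The median log2, 1.45 as reported, was 1.55, 2.42, 0.97 and 1.28 in the same order, and 2.89 in the last. Counts of members on the gene lists changed by more than 1.5 times in 84 cases and less in 267. With both lists at 4-fold, zinc-finger genes went from 20 to 141 and TRIM and RNF genes from 2 to 32. Under that limit all members went from 1047 of 13370 genes to 2476 of the 3738 with a 4-fold WT peak. The leading annotation class turned to the 3' UTR with both lists at 4-fold and with short peaks. Depth per library is unknown, so what it limits was not measured. No paired analysis was possible because each list holds 1 value per peak and genotype, and leaving out a replicate could not be done for the same reason.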

Other observations

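Some further members were picked after their values were seen, with no count of similar genes in both lists. They were the inhibitory receptors Pdcd1 (log2 of 3.57, 3' UTR) and Btla (3.13, 3' UTR), Slamf7 (3.68, with 4 peaks) and the activation marker Cd69 (2.03 and 1.16). Snai1 (2.21), a repressor of epithelial genes, Notch4 (2.20), the survival gene Bcl2a1a (1.93), which has near-identical neighbours in the genome, and the vasoconstrictor gene Edn1 (1.39) also had WT peaks only. Weaker WT-only peaks were listed for 3 other secreted products of inflamed tissue, Mmp13 (1.13), Serpinb2 (0.71) and Tnfaip6 (0.68), and for Ptgs2os (0.85), which lies opposite the prostaglandin synthase gene.

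Some members lay side by side. Among genes with a WT peak in genome order, 232 of the 1047 members (22.2%) were next to another member, against 1770 of 12323 other genes (14.4%). The longest run was 6 genes at chr1:85027954-85255465, among them A530032D15Rik, A530040E14Rik and Gm7609. Runs of 4 histone genes lay at chr13:23571396-23577011 (H2bc8, H2bc7, H2ac7 and H3c4) and chr13:21754123-21812147 (H2bc15, H1f5, Hist1h2bq and Hist1h4m). By autosome the share of members ran from 5.57% on chromosome 11 to 10.2% on chromosome 13.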
